A study of Mus musculus with 89 samples.

Results

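The pericentral Wnt target genes described here are 10 genes that hepatocytes around the central vein are known to express under Wnt control. They are Glul, Oat, Rhbg, Slc1a2, Lgr5, Rnf43, Znrf3, Axin2, Tbx3 and Lect2. Each was found by its symbol as 1 row in all 13 of the authors' deposited tables, among 42687 identifiers in the 10 tables keyed by Ensembl and 23306 symbols in the 3 keyed by RefSeq. The study sequenced RNA from 89 samples in 23 groups, whole livers apart from 1 pair of hepatocyte groups, and none of the labels gives an age or a sex. The question was how the liver responds to tumours elsewhere in the body and to particles that tumours release.

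Every treated liver group had a PBS group of the same strain, route and duration as its control. The 3 livers labelled B16F10-Tb came from C57BL/6 mice with B16F10 melanoma cells under the skin for 3 weeks, set against 3 PBS livers, and the 5 labelled B16F1-Tb from such mice with B16F1 melanoma cells, set against 5. The 5 livers labelled K7M2-Tb came from BALB/c mice with K7M2 osteosarcoma cells in the tibia for 4 weeks, set against 5 PBS livers. The 4T1-Tb and 67NR-Tb livers, 3 each, came from BALB/c mice with mammary tumour cells in the fat pad for 4 weeks, and each group had 3 PBS livers. The other liver groups received extracellular vesicles and particles (EVPs) intravenously, 10 µg in 100 µl every other day for 4 weeks. B16F10-TE-EVPs (tumour explant) and B16F10-CL-EVPs (cell line) were given to C57BL/6 mice, with 5 livers and 5 PBS livers each. K7M2-TE-EVPs and K7M2-CL-EVPs were given to BALB/c mice, with 3 livers each and 3 shared PBS livers. The B16F10 exomeres, Exo-S and Exo-L were given to C57BL/6 mice, with 4 livers each and 4 shared PBS livers. Primary hepatocytes of genotype WT were exposed to TNFα (Hep-TNF) or PBS for 24 hours, 3 samples each, with no strain or dose in the labels. Each tumour group rests on 1 injected cell line, and whether any liver held tumour cells was not examined here.

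Wnt proteins and R-spondin made by endothelial cells of the central vein act on nearby hepatocytes, where β-catenin moves to the nucleus and works with TCF factors on target promoters. R-spondin binds Lgr receptors and holds back the ubiquitin ligases Rnf43 and Znrf3, which otherwise remove Wnt receptors from the cell surface. Pericentral hepatocytes capture the ammonia that escapes urea synthesis upstream and fix it as glutamine, and loss of β-catenin in mouse liver is known to remove that programme.

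The promoter windows of Slc1a2, Lect2 and Oat are shown because the first 2 hold the 7-letter core of a TCF element, and Oat, without a match, was the member with the most calls. Windows run from 250 bases before to 50 after the gene start in the RefSeq table for GRCm38.p6, 5′ to 3′ on the gene's strand, and capitals mark the motif. They lie at chr2:102706188-102706487 on the plus strand for Slc1a2, chr13:56548489-56548788 on the minus strand for Lect2, and chr7:132576349-132576648 on the minus strand for Oat.
Slc1a2: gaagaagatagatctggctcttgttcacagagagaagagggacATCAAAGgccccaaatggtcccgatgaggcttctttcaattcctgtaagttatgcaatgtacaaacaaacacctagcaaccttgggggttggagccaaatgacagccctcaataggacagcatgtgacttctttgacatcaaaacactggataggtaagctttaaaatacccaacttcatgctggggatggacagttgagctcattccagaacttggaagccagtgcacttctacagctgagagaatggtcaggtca
Lect2: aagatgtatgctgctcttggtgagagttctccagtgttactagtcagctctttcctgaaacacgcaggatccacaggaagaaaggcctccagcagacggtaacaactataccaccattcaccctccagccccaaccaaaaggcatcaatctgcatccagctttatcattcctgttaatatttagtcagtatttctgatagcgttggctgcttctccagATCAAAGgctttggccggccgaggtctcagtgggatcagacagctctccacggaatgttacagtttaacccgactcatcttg
Oat: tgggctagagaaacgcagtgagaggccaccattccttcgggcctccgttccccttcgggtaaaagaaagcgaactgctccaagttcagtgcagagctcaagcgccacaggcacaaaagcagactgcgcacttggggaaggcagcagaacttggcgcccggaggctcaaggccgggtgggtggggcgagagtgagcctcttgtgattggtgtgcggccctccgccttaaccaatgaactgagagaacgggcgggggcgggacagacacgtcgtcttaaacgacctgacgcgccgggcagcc
The letters searched were ATCAAAG and TTCAAAG on both strands. The table held windows for 6 of the 10 members, 7 windows in all because Rnf43 has a pair, and 2 of the 7 held a match. Of all 32851 windows in the table, 2842 (8.65%) held one. The match begins 207 bases before the gene start in Slc1a2 and 32 before it in Lect2. The Slc1a2 start in the RefSeq table lies 47779 bases inside the GENCODE vM21 gene, so it is an internal start of that gene. A match is a string of letters and not a measured binding site, and no match says only that these letters are not in the window.

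Each deposited table gives a gene 1 base mean and 1 log2 fold change with its error and p-value, and nothing for single samples, so library depth and the overlap of groups are unknown. Base means are counts after scaling by size factors, averaged over the samples of a fit, and summed to between 17755504 and 51511130 per table. Group means printed below are implied means, computed from the base mean, the unshrunken effect and the group sizes. Fold changes are the authors', shrunken toward 0 by them in the 10 tables keyed by Ensembl and not in the tables for B16F10-Tb, 4T1-Tb and 67NR-Tb. A gene was called at an authors' DESeq2 adjusted p under 0.05. The labels do not say whether the samples of a group are separate animals or cultures, so p-values measure only the spread between these samples. The liver label fits its markers: a list of 10 general hepatocyte genes such as Alb and Apoa1 took 13.4% to 18.9% of the summed base means in the liver tables.

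Levels were set on a per-length scale, the base mean per kilobase of exon with all genes of a table summing to 1e+06. Oat had the highest median level over the 12 liver comparisons, 935, ahead of Glul at 739 and Lect2 at 433. Slc1a2 followed at 31.9, Rnf43 at 15.5 and Tbx3 at 13.3. The lowest were Axin2 at 5.23, Znrf3 at 5.09, Lgr5 at 2.54 and Rhbg at 1.95. Rhbg spanned 0.945 to 14 and Lgr5 0.786 to 3.75, so the last place of Rhbg is not fixed. Its base means differ between the table keys, as given below. Neighbours in this order were not separable where their ranges met: Oat spanned 553 to 1661 and Glul 565 to 1119, while Axin2 and Znrf3 spanned 2.84 to 7.89 and 2.08 to 7.54. In the cultured hepatocytes the order was different, with Lect2 at 317, Glul at 88.7 and Oat at 78.1 of the same unit, and Slc1a2, Rhbg, Lgr5 and Axin2 all under 0.4.

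Over the 13 comparisons 127 of 130 gene values were tested by the authors, with 31 called lower and 5 called higher. In the authors' deposited tables for the tumours, 7 of 10 members fell in B16F1-Tb livers, where 17.1% of all tested genes fell, and 7 of 10 fell in 4T1-Tb livers, where 21% did. In K7M2-Tb livers 6 of 10 fell, against 12.9% of tested genes, and in B16F10-Tb livers 3 of 9 fell, against 5.25%. No member fell in 67NR-Tb livers, where 9.42% of tested genes fell, and 1 of 10 rose, where 9.14% rose. The median log2 fold change in the authors' deposited tables was taken over all 10 members, with Tbx3 included in B16F10-Tb though not tested there. It was -0.91 in B16F1-Tb, -0.61 in 4T1-Tb, -0.35 in B16F10-Tb, -0.29 in K7M2-Tb and -0.04 in 67NR-Tb. The folds of B16F1-Tb and K7M2-Tb are shrunken and those of the other tumour groups are not. These medians are therefore not on one scale, and their order is not a ranking of the groups. Medians of all tested genes lay between -0.02 and 0.01 in those tables. In whole liver, fewer cells of a type and less RNA per cell cannot be told apart.

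The EVP groups held far fewer calls. By the authors' deposited adjusted p, 2 of 9 members fell with K7M2-TE-EVPs, where 2.67% of tested genes fell, and 1 of 10 fell with B16F10-TE-EVPs, where 3.37% did. With B16F10-CL-EVPs 3 of 10 rose, against 2.34% of tested genes that rose. None was called with K7M2-CL-EVPs (9 tested, 1.48% of all tested genes called), exomeres (10 tested, 4.93%), Exo-S (10 tested, 9.76%) or Exo-L (10 tested, 12.7%). At an unadjusted DESeq2 p under 0.05 there were 3, 2, 1 and 1 members in those 4 comparisons. In 67NR-Tb there were 2 higher members and 1 lower at that threshold. The share of all genes at an unadjusted p is not given here, so these counts have no background to be read against. In Hep-TNF cells 5 of 10 fell, against 13.2% of tested genes, and 1 rose, against 16.4%.

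**Figure D1:**
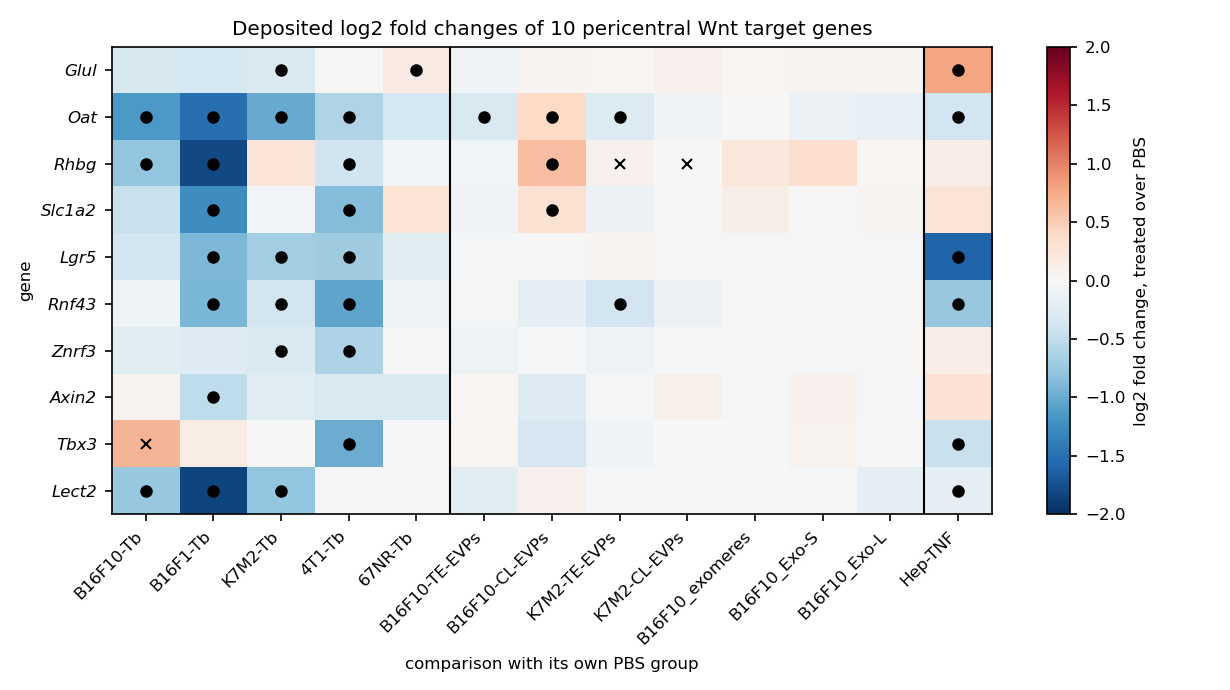
Rows are the 10 genes, columns the 13 comparisons, and colour is the log2 fold change, treated over PBS, in the authors' deposited tables. Black dots mark an adjusted p under 0.05 and crosses a gene without one; the B16F1-Tb, K7M2-Tb, 4T1-Tb and Hep-TNF columns hold the most dots, with 7, 6, 7 and 6.

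Oat, the mitochondrial ornithine aminotransferase that feeds ornithine carbon toward glutamate, was called in 8 of 13 comparisons. Its implied mean was 7334 normalised counts in B16F1-Tb livers against 22122 in PBS livers, 7849 in K7M2-Tb livers against 16142, 8511 in B16F10-Tb livers against 18934, and 11621 in 4T1-Tb livers against 17683. The log2 fold changes in the authors' deposited tables were -1.51 ± 0.19 in B16F1-Tb (adjusted p 4.3e-15), -1.15 ± 0.28 in B16F10-Tb (0.00101), -1.01 ± 0.15 in K7M2-Tb (1.46e-11) and -0.61 ± 0.14 in 4T1-Tb (0.000122). Oat was thus lower in 4 of 5 tumour groups, and in 67NR-Tb livers it stood at 13424 normalised counts against 17157 in PBS livers without a call (adjusted p 0.137 in the authors' deposited table). Explant and cell-line particles of B16F10 moved it in opposite directions. Its implied mean was 23403 with B16F10-TE-EVPs against 34633 with PBS, and 46566 with B16F10-CL-EVPs against 31012 with PBS. The authors' deposited tables gave -0.31 ± 0.20 (adjusted p 0.0393) for the explant and 0.39 ± 0.21 (0.0263) for the cell-line particles. The explant call is lost when the p-values are adjusted without the authors' filter on low counts, at an adjusted p of 0.0708. With K7M2-TE-EVPs Oat fell to 15999 normalised counts, against 21089 in PBS livers (adjusted p 0.00997 in the authors' deposited table). The Oat gene shares part of its annotated span with Fgfr2 on the same strand.

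Glul, glutamine synthetase and the classical marker of the innermost hepatocytes, was called in 3 comparisons, in both directions. It fell in K7M2-Tb livers, with an implied mean of 12576 normalised counts against 16102 in PBS livers. It rose in 67NR-Tb livers, at 19492 against 17378, and in Hep-TNF cells, at 6073 against 3465. The log2 fold changes in the authors' deposited tables were -0.30 ± 0.12 (adjusted p 0.0157) in K7M2-Tb, 0.17 ± 0.06 (0.0332) in 67NR-Tb and 0.79 ± 0.07 (3.32e-28) in Hep-TNF. In the other tumour groups its implied mean was 12331 in B16F1-Tb livers against 17957 in PBS livers, 21454 in B16F10-Tb livers against 26646, and 18426 in 4T1-Tb livers against 18226. None of these 3 was called, nor was any of the 7 EVP comparisons. In 4T1-Tb livers, where 7 other members fell, the 95% interval of the unshrunken Glul effect ran from -0.17 to 0.20.

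Slc1a2, a high-affinity glutamate transporter of pericentral hepatocytes, fell in B16F1-Tb and 4T1-Tb livers. The implied mean of Slc1a2 was 1663 normalised counts in B16F1-Tb livers against 4158 in PBS livers, and 1593 in 4T1-Tb livers against 2901. Log2 fold changes in the authors' deposited tables were -1.24 (adjusted p 1.13e-09) and -0.87 (1.65e-14). In 67NR-Tb livers it stood on the other side of its control, at 3036 against 2506, without a call (adjusted p 0.0626 in the authors' deposited table). It rose with B16F10-CL-EVPs, to 7718 normalised counts against 5667 in PBS livers (adjusted p 0.0276 in the authors' deposited table).

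Rhbg, an ammonia channel of the Rhesus family, fell in 3 tumour groups and rose with B16F10-CL-EVPs. Rhbg had an implied mean of 6.27 normalised counts in B16F1-Tb livers against 28.5 in PBS livers, 208 in B16F10-Tb livers against 361, and 135 in 4T1-Tb livers against 178. With B16F10-CL-EVPs it was 41.8 against 22.6 in PBS livers. The authors' deposited tables gave log2 fold changes of -1.80 (adjusted p 9.18e-06), -0.79 (0.0337), -0.40 (0.0335) and 0.62 (0.0067) in that order. Its base mean lay between 131 and 285 in the liver tables keyed by RefSeq and between 16.8 and 32.2 in those keyed by Ensembl. Gm38392 overlaps Rhbg on the same strand in GENCODE vM21, and the part of that overlap in this gap was not tested. In both K7M2 EVP tables Rhbg has no adjusted p.

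**Figure D2:**
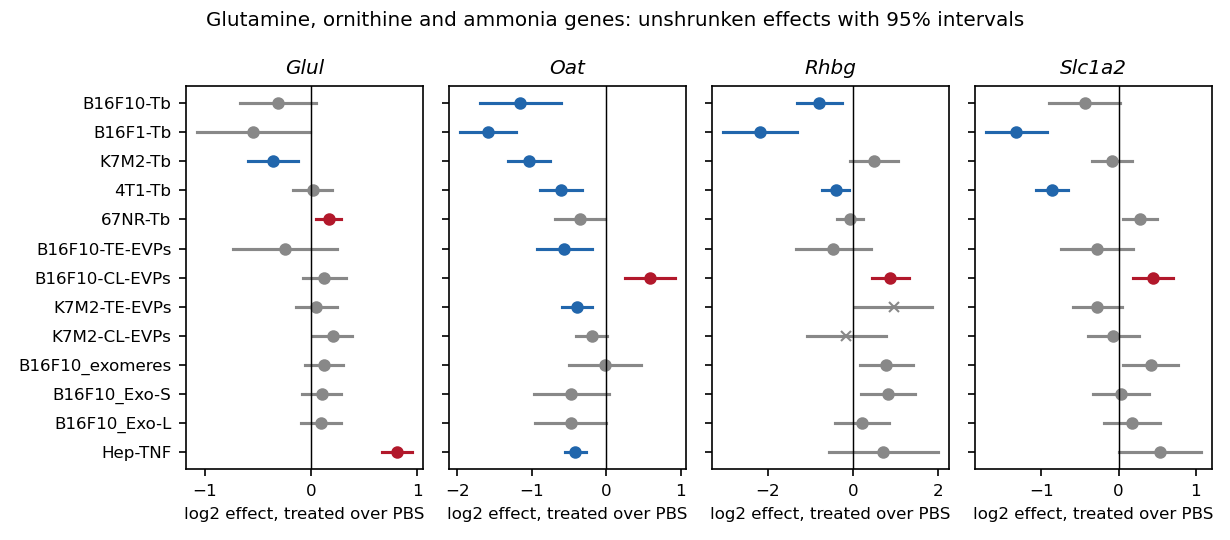
Each panel is 1 gene, with the unshrunken log2 effect (treated over PBS) on the horizontal axis for 13 comparisons; points are effects, bars 95% intervals, blue a fall, red a rise, grey no call and a cross no adjusted p. Oat lies left of 0 with a call in 7 comparisons, while Glul is called in 3, with Hep-TNF its largest effect at 0.81.

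In the EVP groups without a called member, these 4 genes had the following implied means. With exomeres, Exo-S and Exo-L, Oat stood at 25023, 18353 and 18207 normalised counts against 25398 in their shared PBS livers, and Glul at 24330, 23969 and 23837 against 22349. Rhbg stood at 35.2, 36 and 23.7 against 20.3, and Slc1a2 at 5680, 4337 and 4794 against 4254. These intervals were wide, from -0.97 to 0.03 on the unshrunken log2 scale for Oat with Exo-S. With K7M2-CL-EVPs Oat stood at 18370 against 21089 in PBS livers, Glul at 20663 against 17942, Slc1a2 at 2414 against 2529 and Rhbg, not tested there, at 11.8 against 13.1.

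Among the receptor and feedback genes, Lgr5, the R-spondin receptor, fell in 3 tumour groups. Lgr5 had an implied mean of 86.3 normalised counts in B16F1-Tb livers against 185 in PBS livers, 100.4 in K7M2-Tb livers against 181, and 144 in 4T1-Tb livers against 237. The authors' deposited tables gave log2 fold changes of -0.90 (adjusted p 0.000817), -0.69 (0.00207) and -0.71 (0.00528). It fell in Hep-TNF cells as well, where counts were low, to 9.34 against 39.4 in PBS cells (log2 fold change -1.61, adjusted p 0.00019 in the authors' deposited table).

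Rnf43 was called in 5 comparisons, all lower. Its implied mean was 307 normalised counts in B16F1-Tb livers against 642 in PBS livers, 464 in 4T1-Tb livers against 965, 521 in K7M2-Tb livers against 713, and 719 with K7M2-TE-EVPs against 1168. In Hep-TNF cells it was 792 against 1364 in PBS cells. The authors' deposited tables gave -0.91 (adjusted p 0.000209), -1.06 (3.33e-05), -0.36 (0.0118), -0.38 (0.00104) and -0.76 (2.18e-20) in that order. Znrf3, the related ligase, fell in K7M2-Tb livers, to 205 normalised counts against 260 in PBS livers, and in 4T1-Tb livers, to 203 against 310. Its log2 fold changes in the authors' deposited tables were -0.29 (adjusted p 0.0124) and -0.61 (5.48e-05). In Hep-TNF cells Znrf3 stood at 778 against 689 in PBS cells and was not called, while Rnf43 fell there.

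Axin2, a scaffold of the β-catenin destruction complex and a widely used Wnt reporter gene, was called once. It fell in B16F1-Tb livers to 96.8 normalised counts, against 157 in PBS livers (log2 fold change -0.51, adjusted p 0.0208 in the authors' deposited table). Its 95% intervals were wide, from -1.05 to 0.10 in K7M2-Tb and from -0.91 to 0.29 in 4T1-Tb on the unshrunken log2 scale. Tbx3, a T-box repressor, fell in 4T1-Tb livers to 271 normalised counts against 538 in PBS livers, and in Hep-TNF cells to 206 against 304. The authors' deposited tables gave -0.99 (adjusted p 2.14e-06) and -0.45 (0.00219). For Tbx3 in B16F10-Tb livers the authors' deposited table has a log2 fold change of 0.68 ± 0.21 and no p-value, which DESeq2 withholds where 1 sample has an extreme count. Glul, Slc1a2, Lgr5, Rnf43, Axin2 and Tbx3 each have an overlapping antisense gene in GENCODE vM21, and the counting was not stated to use strand.

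Lect2, a cytokine secreted by hepatocytes, fell in 3 tumour groups and in the hepatocytes. The liver level of Lect2, as an implied mean, was 674 normalised counts in B16F1-Tb livers against 2486 in PBS livers, 3635 in K7M2-Tb livers against 6341, and 2459 in B16F10-Tb livers against 4164. Log2 fold changes in the authors' deposited tables were -1.83 (adjusted p 8.82e-32), -0.77 (6.66e-11) and -0.76 (0.00103). Both mammary groups lay close to their controls, at 4455 against 4572 in 4T1-Tb and 3904 against 3955 in 67NR-Tb. In Hep-TNF cells Lect2 fell to 4345 against 5074 in PBS cells (log2 fold change -0.20, adjusted p 0.00288 in the authors' deposited table).

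With B16F10-CL-EVPs, where Oat, Rhbg and Slc1a2 rose, Axin2, Tbx3, Rnf43 and Znrf3 stood below their control without a call. Axin2 had an implied mean of 275 normalised counts with B16F10-CL-EVPs against 473 in PBS livers, Tbx3 807 against 1358, Rnf43 1336 against 1801 and Znrf3 531 against 584. The authors' deposited adjusted p was 0.0907, 0.0575, 0.118 and 0.744.

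**Figure D3:**
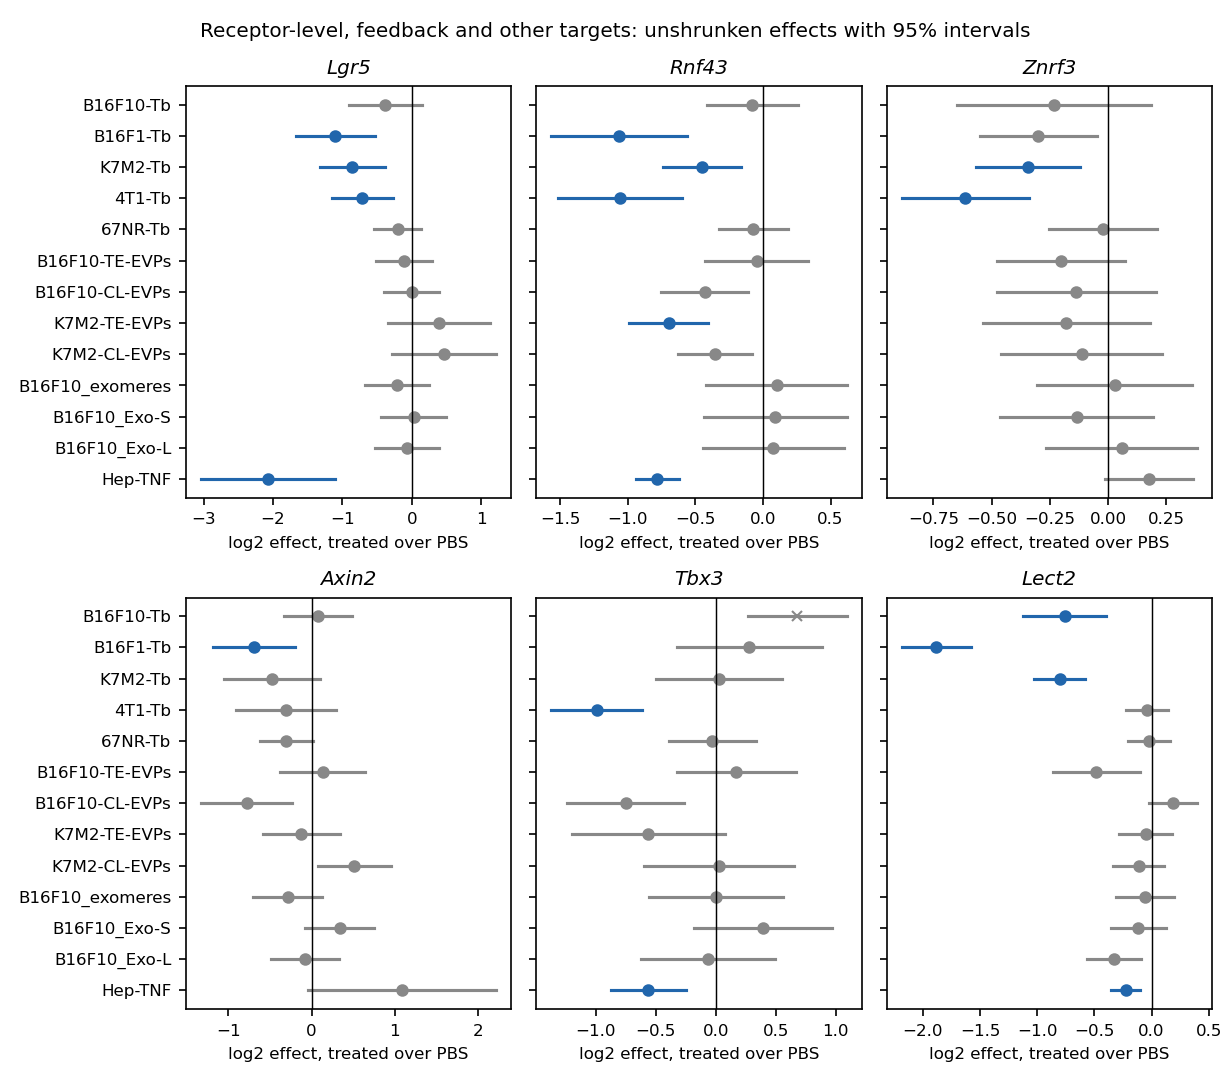
Each panel is 1 gene, with the unshrunken log2 effect (treated over PBS) on the horizontal axis; points are effects, bars 95% intervals, blue a fall, grey no call and a cross no adjusted p. Rnf43 has 5 blue points, Lgr5 and Lect2 have 4 each, Znrf3 and Tbx3 have 2 and Axin2 has 1.

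Effects were then compared between groups with separate PBS controls. For each of 6 pairs the difference of unshrunken effects was divided by its standard error, referred to a normal distribution (two-sided) and adjusted by Benjamini-Hochberg over all genes tested in both tables. Of 57 member differences 15 passed an adjusted p under 0.05.

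The mammary pair compares a tumour line that spreads with one that rarely does. In 4T1-Tb minus 67NR-Tb, 4 of 10 members passed, against 31.9% of all genes. The difference was -1.14 ± 0.15 for Slc1a2 (adjusted p 7.84e-12), -0.99 ± 0.27 for Rnf43 (0.00148), -0.96 ± 0.27 for Tbx3 (0.00209) and -0.59 ± 0.18 for Znrf3 (0.0059). All 4 were lower in 4T1-Tb livers relative to their control than in 67NR-Tb livers relative to theirs. The Oat difference of -0.25 did not pass, with a 95% interval from -0.69 to 0.19. The share of members that passed was near that of all genes.

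Between the melanoma pair, B16F10-Tb minus B16F1-Tb, 3 of 9 members passed, against 9.49% of all genes. Lect2 differed by 1.12 ± 0.24 (adjusted p 0.000211), Rnf43 by 0.99 ± 0.31 (0.0207) and Slc1a2 by 0.88 ± 0.31 (0.0471), so the fall was larger in B16F1-Tb livers. Lect2 alone passed with errors multiplied by 5/4. K7M2-Tb minus 4T1-Tb gave 4 of 10, against 22.9% of all genes. Lect2 was lower in K7M2-Tb by -0.77 ± 0.15 (adjusted p 6.02e-06), and Slc1a2 by contrast was higher by 0.78 ± 0.17 (8.98e-05), Tbx3 by 1.02 ± 0.33 (0.0131) and Rhbg by 0.90 ± 0.33 (0.0327). Slc1a2, Tbx3 and Rhbg were called lower in 4T1-Tb livers and Lect2 in K7M2-Tb livers. With errors multiplied by 5/4 Lect2 and Slc1a2 passed and Tbx3 and Rhbg did not (adjusted p 0.087 and 0.147). Tables keyed to RefSeq and to Ensembl meet in both of these pairs and in B16F10-TE-EVPs minus B16F10-Tb, and the gap in the base mean of Rhbg between the keys is given above.

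Explant particles were set against the tumour they came from. K7M2-TE-EVPs minus K7M2-Tb passed for 3 of 9 members, against 16.5% of all genes. Oat differed by 0.64 ± 0.18 (adjusted p 0.00388), Lect2 by 0.75 ± 0.17 (0.000147) and Lgr5 by 1.25 ± 0.45 (0.0347), each with the lower effect in tumour-bearing livers. Lgr5 itself was not called with K7M2-TE-EVPs, where its deposited log2 fold change of 0.05 ± 0.14 became 0.39 when unshrunken. In K7M2-Tb its deposited -0.69 became -0.86, so part of the Lgr5 difference comes from undoing the shrinkage. For B16F10-TE-EVPs minus B16F10-Tb none of 9 members passed in the test of the difference, with 2.57% of all genes passing and no member under an unadjusted p of 0.05. The Oat interval there ran from -0.07 to 1.25. For B16F10-TE-EVPs minus B16F10-CL-EVPs 1 of 10 members passed, Oat at -1.15 ± 0.26 (adjusted p 0.00599), against 1.24% of all genes. That call was lost when the deposited shrunken folds were used or errors were multiplied by 5/4. Both K7M2 EVP groups share their PBS livers and so do the 3 particle classes, so these were not tested against each other.

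**Figure D4:**
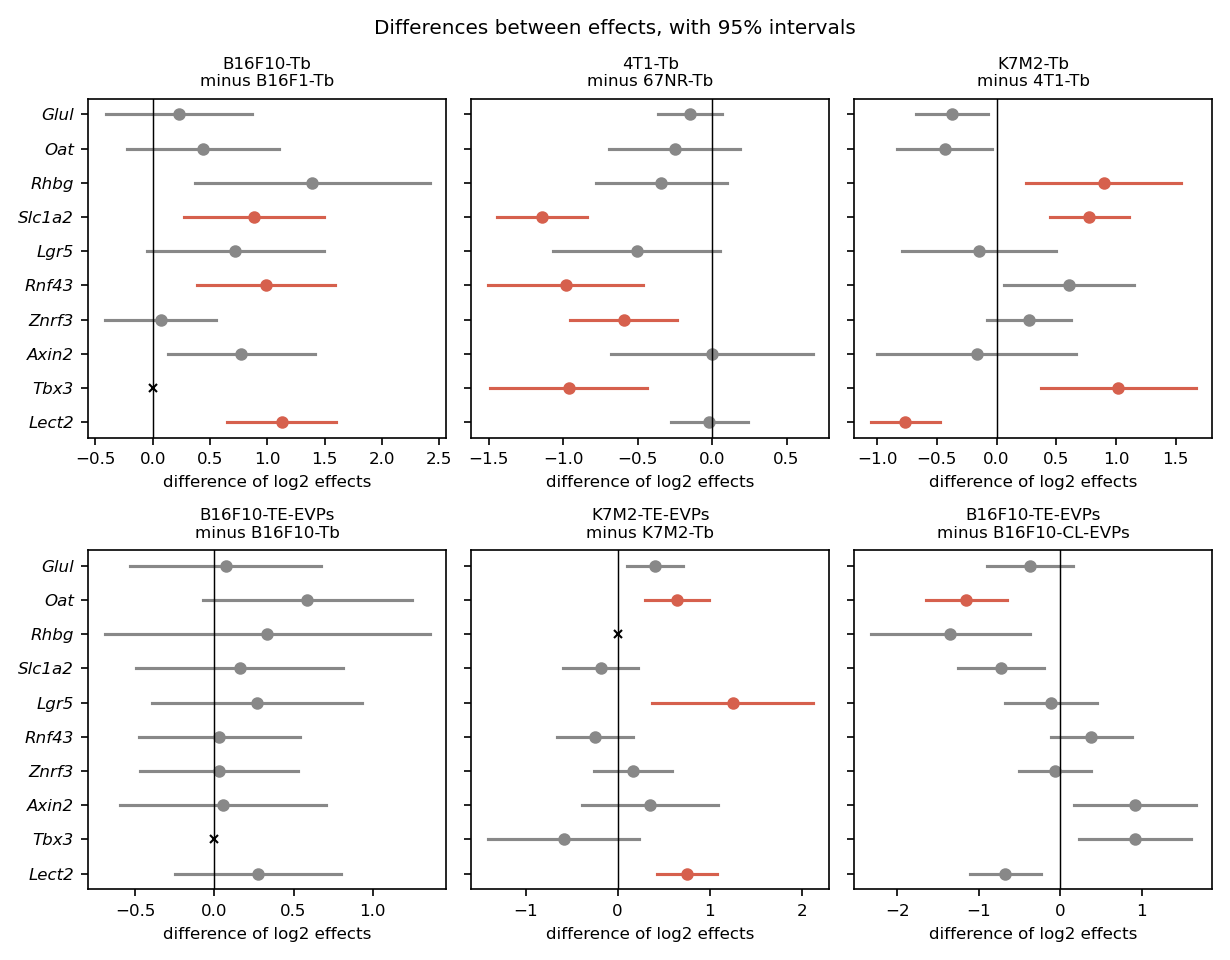
Each panel is 1 pair of groups with the difference of unshrunken log2 effects, first minus second, on the horizontal axis; bars are 95% intervals, red marks an adjusted p under 0.05, and a cross at 0 marks a gene not tested in both. The 4 red points of 4T1-Tb minus 67NR-Tb lie left of 0 and the 3 of B16F10-Tb minus B16F1-Tb right of it.

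The upstream pathway was measured with fixed lists. In the authors' deposited tables for 16 Wnt ligands and receptors, 3 of 13 tested fell and 0 rose in B16F10-Tb, 5 fell and 2 rose of 16 in B16F1-Tb, 6 fell and 3 rose of 15 in 4T1-Tb, 2 fell and 1 rose of 16 in K7M2-Tb, and 0 fell and 1 rose of 14 in 67NR-Tb. Their median log2 fold changes in those tables were 0.01, -0.18, -0.26, -0.01 and -0.05. The central-vein ligand Wnt2 fell in B16F10-Tb livers to an implied 64.4 normalised counts against 108.9 in PBS livers, and in 4T1-Tb livers to 51.5 against 77.8. Adjusted p was 0.0472 and 0.0213 in the authors' deposited tables. Wnt9b, the other central-vein ligand, fell in B16F1-Tb livers to 13.2 against 26.7 (adjusted p 0.00636) and rose in 67NR-Tb livers to 24.1 against 15.9 (0.0129 in the authors' deposited tables). Rspo3, the R-spondin of the central vein, fell in K7M2-Tb livers to 48.2 against 96.4 in PBS livers (adjusted p 8.45e-05 in the authors' deposited table). In Hep-TNF cells Rspo3 rose at low counts, to 37 against 11.7 in PBS cells (adjusted p 0.00107 in the authors' deposited table). No single ligand was called lower in every group in which the members fell. Wnt2 was tested in 12 of the 13 comparisons and Wnt9b in 10, and a missing call does not show that a ligand was unchanged. The part of these ligands in the members' change was not tested.

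Notum, a secreted enzyme that inactivates Wnt proteins and is itself induced by Wnt, was lower in 5 of 13 comparisons. Its implied mean was 396 normalised counts in B16F1-Tb livers against 988 in PBS livers, 680 in K7M2-Tb livers against 1409, 617 in 4T1-Tb livers against 1232, and 825 in 67NR-Tb livers against 1055. The log2 fold changes in the authors' deposited tables were -1.23, -1.02, -0.998 and -0.35. Fzd8, a Wnt receptor, fell in B16F10-Tb, B16F1-Tb and 4T1-Tb livers by -1.32, -1.15 and -1.11 in those tables. Ctnnb1, which encodes β-catenin, was called in Hep-TNF, where it rose (log2 fold change 0.15), and with Exo-S, where it fell (-0.11 in the authors' deposited tables), and in no tumour group.

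The members' change was set beside a list of 18 metabolic genes of pericentral hepatocytes and a list of 18 of periportal ones. In the authors' deposited tables the pericentral list had 15 lower and 1 higher in 4T1-Tb, 12 and 1 in K7M2-Tb, 10 and 1 in B16F1-Tb, 8 and 1 in B16F10-Tb and 7 and 1 in 67NR-Tb, all 18 tested in each. The periportal list had 7 lower and 3 higher in 4T1-Tb, 8 and 2 in K7M2-Tb, 7 and 2 in B16F1-Tb, 6 and 1 in B16F10-Tb and 4 and 0 in 67NR-Tb. Periportal genes fell as well, so the falls were not confined to one end of the lobule in these counts. Median log2 fold changes of the pericentral list were -1.20, -0.46, -0.67, -0.53 and -0.14 in the authors' deposited tables, and of the periportal list -0.23, -0.27, -0.35, -0.11 and -0.11 in the same order. Whether the lists differ was not tested.

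Single genes of both lists show the size. Cyp2e1, the ethanol-oxidising cytochrome of pericentral cells, fell to 36231 normalised counts in B16F1-Tb livers against 117276 in PBS livers, and to 96104 in 4T1-Tb livers against 212111. Gls2, the periportal glutaminase that releases the ammonia of glutamine, fell to 3236 in B16F1-Tb livers against 10107 in PBS livers and was lower in 8 of 13 comparisons. Slc13a3, a dicarboxylate transporter, was the pericentral list gene that rose in 4T1-Tb livers, at 2538 in 4T1-Tb livers against 303 in PBS livers (log2 fold change 3.07 in the authors' deposited table). Glutamine and glutamate genes outside the 10 had 8 lower and 1 higher of 13 tested in 4T1-Tb, 6 and 2 of 13 in K7M2-Tb, 5 and 1 of 13 in B16F1-Tb, 5 and 0 of 11 in B16F10-Tb and 4 and 0 of 12 in 67NR-Tb.

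**Figure D5:**
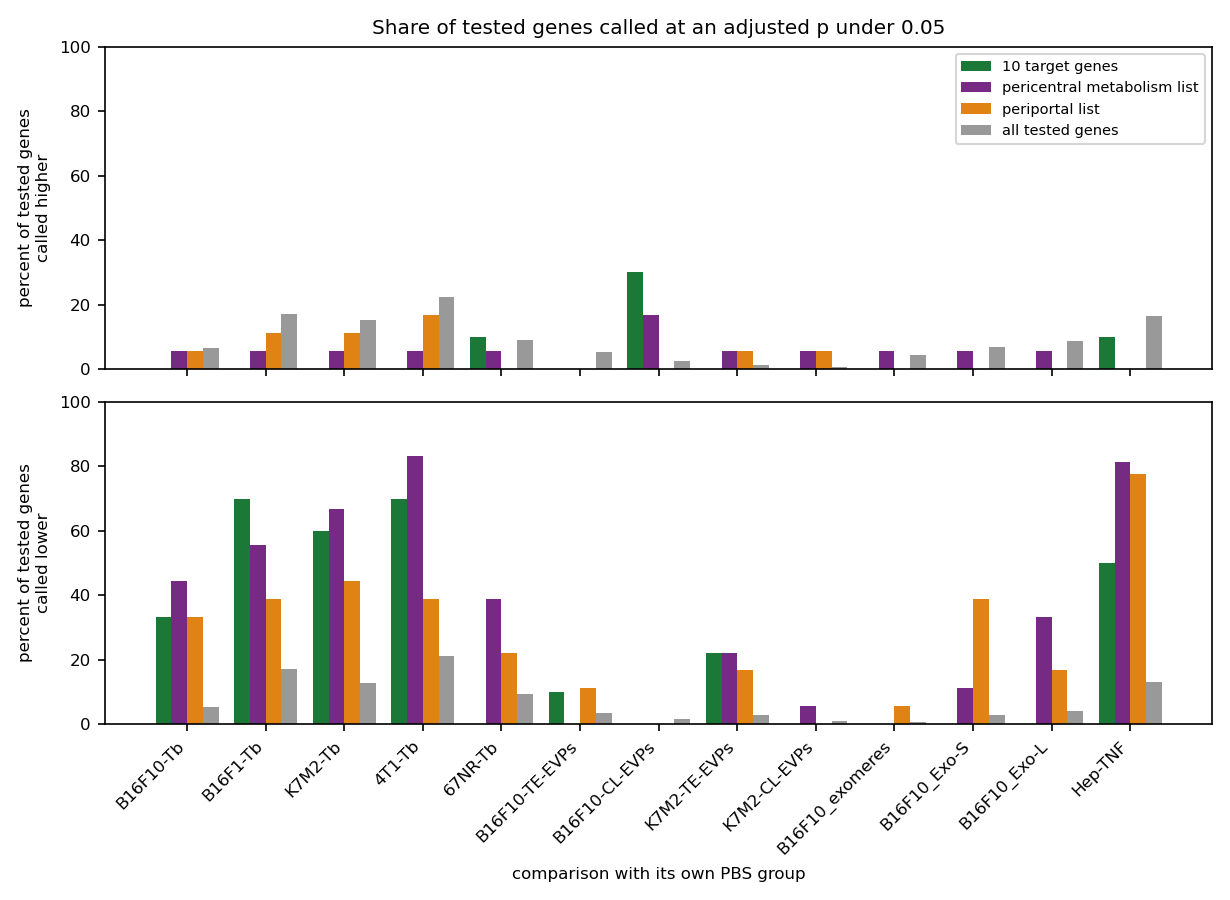
Bars give the percent of tested genes called higher (upper panel) and lower (lower panel) in each comparison, from the authors' adjusted p under 0.05, for the 10 target genes, the pericentral and periportal lists and all tested genes. In 4T1-Tb 70% of the target genes and 83.3% of the pericentral list were called lower, against 21% of all tested genes.

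Markers of other cell types moved in the same livers. In B16F1-Tb, 13 of 15 endothelial genes, 8 of 8 Kupffer genes and 8 of 8 neutrophil genes rose in the authors' deposited table, and the summed implied means of the endothelial list were 20747 normalised counts against 9933 in PBS livers. In 4T1-Tb livers 10 of 15 endothelial, 8 of 8 Kupffer and 6 of 6 tested neutrophil genes rose, and the neutrophil list summed to 46974 against 1156. In K7M2-Tb livers 5 of 15 endothelial genes fell, 8 of 8 Kupffer and 8 of 8 neutrophil genes rose, and the neutrophil list summed to 7121 against 79.5. In 67NR-Tb livers, where no member fell, 13 of 15 endothelial and 8 of 8 Kupffer genes rose too. In B16F10-Tb livers 1 of 6 tested Kupffer and 3 of 4 tested neutrophil genes rose and the endothelial list summed to 15293 against 14336, and with B16F10-CL-EVPs 7 of 8 Kupffer genes and 5 of 8 stellate genes did. With B16F10-TE-EVPs 6 of 15 endothelial and 8 of 8 Kupffer genes rose, while with K7M2-TE-EVPs those lists summed to 17804 and 12858 normalised counts against 15765 and 9903 in PBS livers, without a called gene. The Kupffer list summed to 10080 normalised counts in B16F1-Tb livers against 5262 in PBS livers, 16224 in K7M2-Tb against 4894, 14507 in 4T1-Tb against 7301, and 5826 in 67NR-Tb against 3943. No marker of these lists had a base mean of 0 in the liver tables named. General hepatocyte genes had 5 higher and 1 lower of 10 in B16F1-Tb and in B16F10-Tb, 3 and 2 in K7M2-Tb, 4 and 3 in 4T1-Tb and 2 and 0 in 67NR-Tb. The part of these markers in the members' change was not tested.

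In Hep-TNF cells the members were split: Glul rose while Oat, Rnf43, Lgr5, Tbx3 and Lect2 fell. Of the pericentral list 13 of 16 tested fell and of the periportal list 14 of 18, in the authors' deposited table, and of the general hepatocyte list 9 of 10 fell. Cyp2e1 had an implied mean of 17607 normalised counts in Hep-TNF cells against 29331 in PBS cells, and Gls2 2162 against 2758. Glul ran against most genes of either list in these cells. Markers of other cells were present in these cultures. Of the cholangiocyte genes, Krt19 stood at 9510 normalised counts in Hep-TNF cells against 9840 in PBS cells without a call. Sox9 rose to 3762 against 2674 and Krt7 fell to 222 against 545. Of the endothelial genes, Stab1 rose to 1894 against 1501 and Thbd fell to 950 against 1839. Of the Kupffer genes, 5 of 8 fell and 2 rose by the authors' deposited adjusted p. Marco, a scavenger receptor, was the most abundant of the Kupffer genes, at 2669 normalised counts in Hep-TNF cells against 1054 in PBS cells. The other 7 Kupffer genes summed to 1196 against 1752. The part of any of these markers in the members' change was not tested.

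Likeness to Glul was measured as Pearson's r of the deposited log2 fold change over the comparisons, for 10651 genes tested in all 13, as a description only, since some comparisons share PBS livers and some folds are shrunken. The genes most like Glul over 13 comparisons were Tcp1 (r 0.93), Las1l (0.92), Trmt10a (0.92), Wdr18 (0.92) and C730036E19Rik (0.92). Of the fixed lists Rspo3 was nearest at 0.84, followed by Slc7a2 at 0.69, Tcf7l2 at 0.56, Notum at 0.55 and Prodh at 0.54. Over the 12 livers alone this order turned, with Prodh at 0.73, Notum at 0.69, Rspo3 and Tcf7l2 at 0.53 and Slc7a2 at 0.33. Among the members, Oat had an r with Glul of 0.52 over 13 comparisons and 0.86 over the 12 livers, and Lect2 0.57 and 0.88. The hepatocyte comparison thus set much of the order. Oat, taken as the gene of comparison after its values were seen, was nearest to Mmaa (0.96) and Mdh1 (0.95). Its nearest list genes were Gls2 at 0.91 and Cyp1a2 at 0.90, from opposite ends of the lobule.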

How the data were processed

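Stranded poly(A) RNA libraries of livers and hepatocytes were compared by the authors. Per the submitters' processing notes the tools were bcl2fastq 2.19, TopHat2 2.0.11, Cufflinks 2.1.1 and DESeq2 without a version, on mm9; the counting tool is not given in the sources used here. Of 42687 Ensembl identifiers 42250 are in GENCODE vM21 (GRCm38), so the named build may not apply, and coordinates are GRCm38 by gene match. Per the file headers, the deposited values are a base mean (a signal: mean count after size-factor scaling), log2 fold change and its log2 error, p-value and adjusted p-value, and in 3 tables a Wald score by the authors.

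In the authors' 10 deposited tables keyed by Ensembl the log2 fold changes are shrunken. Unshrunken effects were recovered from fold, error and p-value under a zero-centred mixture of 12 normal components fitted per table to 400 genes. The median misfit was at most 1.12% of the fold, taken only over genes with larger effects relative to their error. Recovery was also tested on simulated data, which were shrunken with the same form of mixture. That test therefore could not show whether the authors' own shrinkage has this form. Implied group means assume that tables with identical base means were fitted together. Intervals are at 95%. Python 3.11.15, numpy 2.4.6, pandas 2.3.3 and scipy 1.17.1 were used. Library depth per sample is unknown, and precision is that of the authors' errors.

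Groups follow the labels. The members, 15 lists, panel and tests were chosen with earlier results of these data known. Named genes are the members, a fixed panel, the 3 smallest adjusted p of each list and the 5 most like Glul. Alternatives changed the adjusted p threshold, filters, minimum fold, errors and shrinkage.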

Additional observations from a re-analysis of the deposited data

Results flagged for a closer look

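These members were picked out because the test of the difference between 2 groups' effects passed an adjusted p under 0.05, in units of log2. Between the mammary tumours, 4T1-Tb minus 67NR-Tb, the difference was -1.14 for Slc1a2, -0.99 for Rnf43, -0.96 for Tbx3 and -0.59 for Znrf3. For B16F10-Tb minus B16F1-Tb it was 0.88 for Slc1a2, 0.99 for Rnf43 and 1.12 for Lect2. For K7M2-Tb minus 4T1-Tb it was 0.90 for Rhbg, 0.78 for Slc1a2, 1.02 for Tbx3 and -0.77 for Lect2. For K7M2-TE-EVPs minus K7M2-Tb it was 1.25 for Lgr5, 0.64 for Oat and 0.75 for Lect2. For B16F10-TE-EVPs minus B16F10-CL-EVPs it was -1.15 for Oat. Slc1a2 passed in 3 of the 6 pairs and Lect2 in 3, Axin2 and Glul in none.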

How the results depend on the processing

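No paired analysis was possible because the deposited tables hold no value per sample, and leaving out a replicate was not run for the same reason. Counts of members called that moved by over 1.5 times were these. Shares of all genes at the changed thresholds and the minimum fold are not given here. The member counts there show only which calls moved. At an adjusted p under 0.01 there were 3 in K7M2-Tb, 0 in 67NR-Tb, 0 with B16F10-TE-EVPs and 1 with B16F10-CL-EVPs. At 0.1 there were 2 in 67NR-Tb, 5 with B16F10-CL-EVPs, 1 with Exo-S and 1 with Exo-L. With an absolute log2 fold change of at least 0.5 as well there were 3 in K7M2-Tb, 0 in 67NR-Tb, 0 with B16F10-TE-EVPs, 1 with B16F10-CL-EVPs, 0 with K7M2-TE-EVPs and 3 in Hep-TNF. That minimum was set on deposited folds, which are shrunken in the EVP groups. Of the EVP calls it ended, Oat was -0.57 unshrunken with B16F10-TE-EVPs and 0.59 with B16F10-CL-EVPs, and Rnf43 -0.70 with K7M2-TE-EVPs. Slc1a2 with B16F10-CL-EVPs (0.45) and Oat with K7M2-TE-EVPs (-0.40) stayed under 0.5 unshrunken. Without the authors' filter on low counts there were 0 with B16F10-TE-EVPs, and all genes called came to 347 with B16F10-CL-EVPs and 275 with K7M2-TE-EVPs. A base mean of at least 50 ended 3 member calls. They were Rhbg in B16F1-Tb (base mean 17.4) and with B16F10-CL-EVPs (32.2), and Lgr5 in Hep-TNF (24.4).

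Of the differences, deposited folds as they are gave 1 member for B16F10-Tb minus B16F1-Tb, 587 genes for B16F10-TE-EVPs minus B16F10-Tb, and 8 genes with 0 members for B16F10-TE-EVPs minus B16F10-CL-EVPs. With errors multiplied by 5/4 there were 349 genes and 1 member for B16F10-Tb minus B16F1-Tb, 2481 genes for 4T1-Tb minus 67NR-Tb, 1773 genes and 2 members for K7M2-Tb minus 4T1-Tb, 29 genes for B16F10-TE-EVPs minus B16F10-Tb, 905 for K7M2-TE-EVPs minus K7M2-Tb, and 0 genes and 0 members for B16F10-TE-EVPs minus B16F10-CL-EVPs. At an adjusted p under 0.01 these were 613 genes and 1 member, 2062 genes and 2 members for K7M2-Tb minus 4T1-Tb, 125, 1165 and 17 genes for the last 3 pairs in that order. Likeness to Glul turned to 0.72 for Lgr5 and 0.37 for Rnf43 over the 12 livers, from below 0 over 13. The causes were not tested beyond the construction of each setting.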

Other observations

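Slc13a3, a gene of the pericentral list, rose in 9 of 13 comparisons and fell in 0, by the authors' deposited adjusted p. Its implied mean was 1057 normalised counts with Exo-S, 954 with Exo-L and 706 with exomeres against 558 in their shared PBS livers, and 777 with K7M2-CL-EVPs and 727 with K7M2-TE-EVPs against 383 in theirs. No member was called in 4 of those 5 comparisons. In the tumour groups it was 661.5 in B16F1-Tb livers against 382 in PBS livers, 905 in B16F10-Tb livers against 550.2, and 579 in 67NR-Tb livers against 380.3. With B16F10-TE-EVPs (549 against 527) and B16F10-CL-EVPs (569 against 595) it was not called. In Hep-TNF cells Slc13a3 stood below its control at low counts, 21.9 against 33.4 in PBS cells, also without a call (adjusted p 0.299 in the authors' deposited table). Slc13a3 was singled out after its values were seen.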
